A study of Mus musculus with 18 samples.

Results

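The mouse gasdermin C cluster was described across 18 RNA-seq libraries of the colon. Its members were the 4 genes of the count table with the symbols *Gsdmc*, *Gsdmc2*, *Gsdmc3* and *Gsdmc4*, out of 36757 genes listed. *Gsdmc3* was chosen by its count difference between genotypes in chronic colitis, and the other members by their symbols, so values of that difference are given below as a description, with no test.

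The libraries were made from C57BL/6 mice labelled wild type (RNF138 fl/fl) or RNF138-/-, which lack an E3 ubiquitin ligase, with 3 libraries of each genotype in each of 3 models. The mice of all 3 models were aged 6 to 8 weeks. In the chronic colitis model (DSS), they drank 2% dextran sulfate sodium, a chemical that injures the colonic epithelium, for 7 days and then water for 14 days. The cycle was given again 2 times and tissue was taken 4 weeks later. In the colitis-associated cancer model (AOM/DSS), mice of both genotypes first received the carcinogen azoxymethane at 10 mg/kg and, 4 days later, entered 3 such cycles, and colorectal tissue was taken. The organoids were grown in matrigel from tumor-bearing fragments of the AOM/DSS model, so both organoid genotypes carry that exposure too. How the gene was deleted, in which cells, and whether the libraries of a group came from separate animals or cultures are not given in the sources used here, and p-values therefore measure only the spread between these libraries.

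Total counts were between 11514716 and 24390082 per library. Levels are given as CPM, counts scaled to library size by the TMM method over all 18 libraries. In no model did *Rnf138* itself lie below its wild-type range in the libraries labelled RNF138-/-, so the genotype below is the labelled one. It was at 18.1 to 19.5 CPM against 16.0 to 25.5 in DSS, 39.6 to 45.3 against 21.0 to 27.99 in AOM/DSS and 42.6 to 49.9 against 37.4 to 55.2 in organoids. The summed level of 14 general epithelial markers, among them *Epcam* and *Krt8*, was between 8456 and 21882 CPM in all libraries. The third wild-type AOM/DSS library stood apart from the others of its group. Its summed crypt base markers were at 710 CPM against 1037 and 1086, and its summed surface colonocyte markers at 45760 CPM against 13259 and 20393. In the organoid libraries 8 fibroblast markers summed to between 10581 and 54302 CPM, against 1288 to 2331 in tissue. Y-linked transcripts were read in all tissue libraries and in the organoids labelled RNF138-/- and were at 0 in all 3 wild-type organoid libraries, so sex and genotype cannot be told apart in the organoids.

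Gasdermins are held inactive by their C-terminal domain. When a protease cuts the linker, the N-terminal domain inserts into the plasma membrane, forms pores and can kill the cell by pyroptosis. Gasdermin C is cut by caspase-8, and in the mouse intestine its genes are known as epithelial targets of the type 2 cytokines IL-4 and IL-13, which act through the receptor subunits *Il4ra* and *Il13ra1* and the transcription factor *Stat6*. They are also known to rise in colonic tumors in which TGF-β receptor signaling is lost.

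The 4 members lie side by side on the minus strand of chromosome 15 of mm10, within 136330 bases from 63775968 to 63912297. *Gsdmc* (ENSMUSG00000079025.9) spans 63775968 to 63808759, *Gsdmc2* (ENSMUSG00000056293.12) 63824346 to 63845177, *Gsdmc3* (ENSMUSG00000055827.13) 63857724 to 63878558 and *Gsdmc4* (ENSMUSG00000055748.12) 63891264 to 63912297. Each has 11 coding exons. *Gsdmc* encodes 468 codons and each other member 480. Between and beside them, on the plus strand, the annotation places 4 transcribed pseudogenes, *1700065I16Rik*, *Gsdmcl1*, *Gsdmcl2* and *Gsdmcl-ps*.

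**Figure D1:**
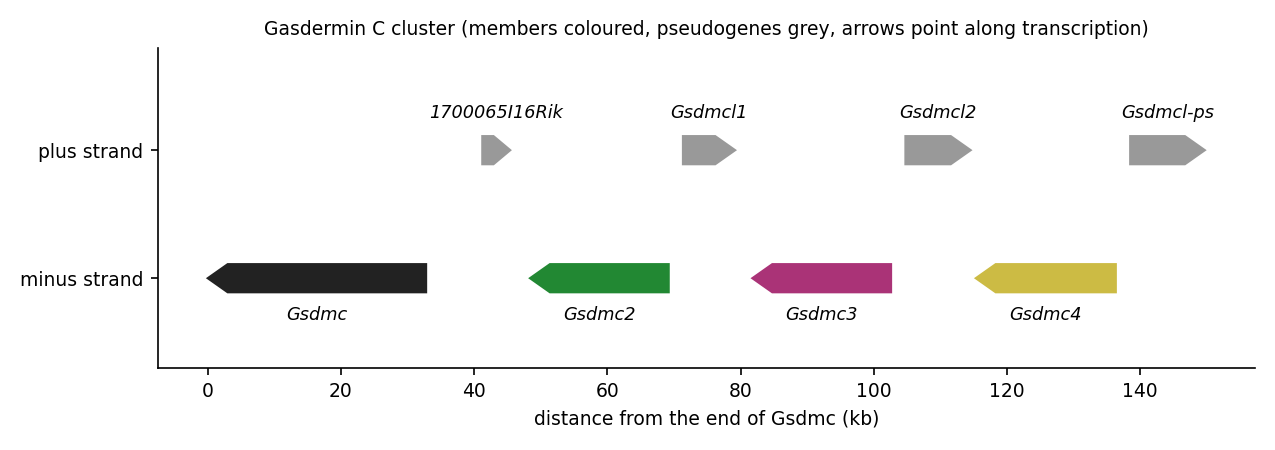
Gasdermin C genes and pseudogenes drawn to scale by distance in kb from the end of *Gsdmc*. The 4 members (coloured) are all on the minus strand, and the pseudogenes (grey) are all on the plus strand.

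The copies are close in sequence, which limits how well reads can be given to one of them. The coding sequences of *Gsdmc2* and *Gsdmc3* were 97.08% identical, with 42 differences in 1440 bases. *Gsdmc4* was 93.79% identical to each of those 2 genes, with 89 differences each, and *Gsdmc* was 87.1% to 88.3% identical to the others. Of the 50-base windows of their transcripts, 51.3% in *Gsdmc2*, 46.0% in *Gsdmc3*, 39.0% in *Gsdmc4* and 16.1% in *Gsdmc* also occurred in another gene. Of the 150-base windows the shares were 14.9%, 18%, 8.83% and 2.95%. The first 120 coding bases of the 4 members show this likeness, with capitals at each base that differs from *Gsdmc3*, 14 in *Gsdmc*, 1 in *Gsdmc2* and 1 in *Gsdmc4*.
Gsdmc: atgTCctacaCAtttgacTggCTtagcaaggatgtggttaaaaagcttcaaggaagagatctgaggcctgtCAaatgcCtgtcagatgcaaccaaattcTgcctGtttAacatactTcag
Gsdmc2: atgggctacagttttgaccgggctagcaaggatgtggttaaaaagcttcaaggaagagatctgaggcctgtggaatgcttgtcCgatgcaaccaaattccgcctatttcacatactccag
Gsdmc3: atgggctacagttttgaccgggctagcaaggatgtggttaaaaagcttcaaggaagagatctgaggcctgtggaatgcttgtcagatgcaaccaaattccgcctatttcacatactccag
Gsdmc4: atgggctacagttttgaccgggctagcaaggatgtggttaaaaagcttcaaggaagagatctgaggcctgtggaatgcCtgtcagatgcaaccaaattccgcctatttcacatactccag

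Shown next is the first 90-base coding window, without gaps in the 3 closest copies, that differs most between *Gsdmc2* and *Gsdmc3*. It runs from coding base 773 to 862 of *Gsdmc2* and *Gsdmc3* and from 779 to 868 of *Gsdmc4*. Capitals again mark differences from *Gsdmc3*, 13 in *Gsdmc2* and 14 in *Gsdmc4*.
Gsdmc2: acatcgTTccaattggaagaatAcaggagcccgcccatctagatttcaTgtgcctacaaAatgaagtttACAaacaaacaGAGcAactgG
Gsdmc3: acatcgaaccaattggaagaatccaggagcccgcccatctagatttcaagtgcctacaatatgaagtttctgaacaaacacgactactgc
Gsdmc4: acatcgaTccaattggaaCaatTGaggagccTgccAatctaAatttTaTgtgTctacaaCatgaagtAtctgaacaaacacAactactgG

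A promoter sequence was at hand for 1 of the 4 members, *Gsdmc3* (RefSeq, mm10). It is shown because the members that were read moved together, as the 250 bases before the start, chr15:63878559-63878808 on the minus strand, with the TATA-like run TATATAA in capitals.
Gsdmc3 promoter: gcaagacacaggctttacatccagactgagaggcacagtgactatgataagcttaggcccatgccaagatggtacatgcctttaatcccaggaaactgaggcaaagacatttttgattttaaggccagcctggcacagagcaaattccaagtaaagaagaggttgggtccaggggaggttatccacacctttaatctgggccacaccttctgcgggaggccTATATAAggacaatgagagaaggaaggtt
The run begins at position -29 from the start, and 3.24% of 32851 promoters hold it on either strand. This share and those below were counted over windows that also run past the start, longer than the one shown. The spacing that STAT6 prefers, TTC and GAA with 4 bases between them, is not in this window on either strand, and 6.95% of promoters hold it. Nor are TTC and GAA with 3 bases between them (8.3% of promoters), TGANTCA (7.81%) or TATAAA (13.6%).

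Of the members, *Gsdmc* was close to absent. It had between 0 and 4 counts in every library, with 0 in all 3 wild-type DSS libraries and all 6 organoid libraries, where a count of 0 allows up to 3 counts. It did not pass the filter on low counts in any comparison and no fold was computed. *Gsdmc2*, *Gsdmc3* and *Gsdmc4* passed in tissue, and 2 of the 4 members, *Gsdmc2* and *Gsdmc4*, in organoids.

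Together the 4 members had the highest mean in DSS tissue labelled RNF138-/-, 1890 ± 1122 CPM (SD, n = 3, as in all groups), then in wild-type AOM/DSS tissue, 1254 ± 1287, in wild-type DSS tissue, 326 ± 54.3, and in AOM/DSS tissue labelled RNF138-/-, 111 ± 93.8. The organoids were lowest, at 5.37 ± 1.95 with the label RNF138-/- and 4.89 ± 1.74 in wild type. Libraries of the first 2 groups in this order overlapped, at 792 to 3034 and 458 to 2738 CPM. The wild-type DSS libraries, at 264 to 363 CPM, overlapped neither of their neighbours. The RNF138-/- AOM/DSS libraries, at 6.56 to 188 CPM, overlapped the organoids of the same label, at 3.94 to 7.59, through their second library, and the organoid genotypes overlapped. These are shares of a library's RNA, and in bulk tissue fewer cells that express a gene and less of its RNA per cell cannot be told apart.

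**Figure D2:**
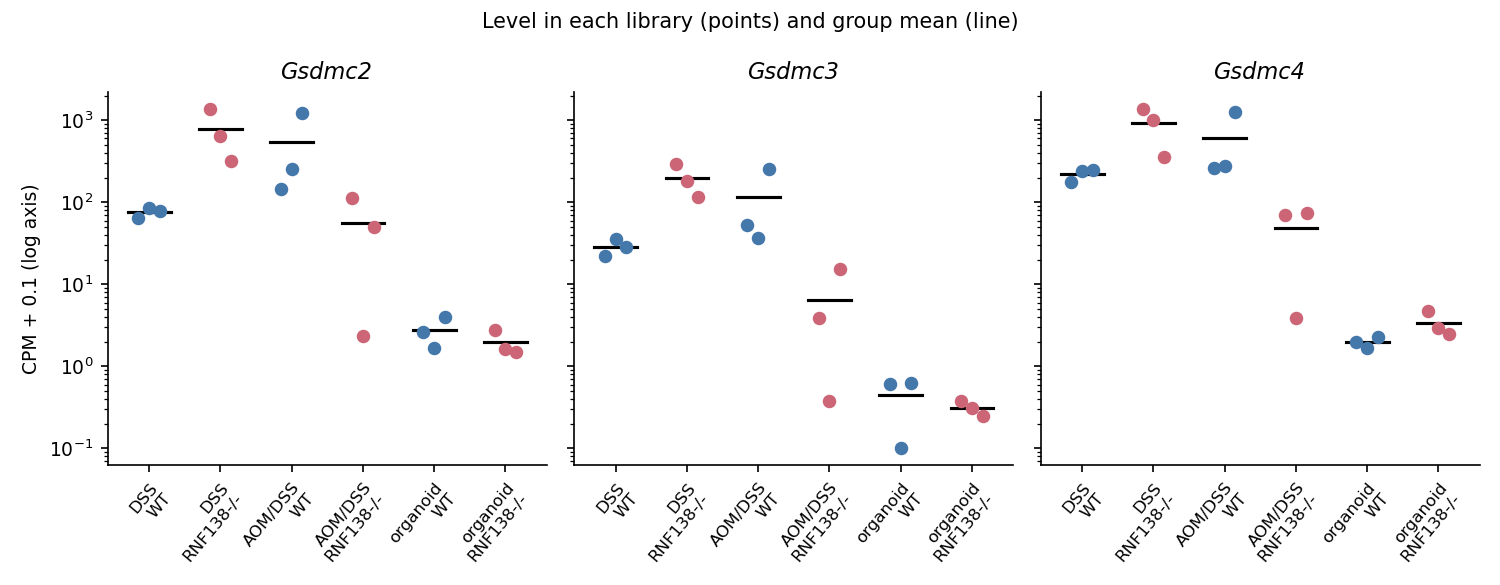
CPM + 0.1 on a log axis of *Gsdmc2*, *Gsdmc3* and *Gsdmc4* in each library (points) with group means (lines). All 3 genes were between 22.3 and 1374 CPM in DSS tissue and at most 4.67 CPM in organoids, and the second RNF138-/- AOM/DSS library was lowest of the tissue libraries.

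In DSS tissue, *Gsdmc2*, *Gsdmc3* and *Gsdmc4* were higher in every library labelled RNF138-/- than in every wild-type library. *Gsdmc2* was at 63.5, 84.95 and 78.7 CPM in wild type and at 1367, 644 and 320.3 CPM with the label RNF138-/-. Its log2 fold change was 3.37 (SE 0.49, edgeR). *Gsdmc3* was at 22.3, 35.2 and 28.2 CPM against 293, 182 and 115 CPM, or 2.802 on the log2 scale (SE 0.35). For *Gsdmc4* the wild-type values were 178, 242.9 and 244.5 CPM and the RNF138-/- values 1374, 1018 and 357 CPM, a difference of 2.06 on that scale (SE 0.44). In each gene the first RNF138-/- library was the highest and the third the lowest. This contrast chose *Gsdmc3*, and by edgeR it gave 3 of 16623 genes called higher (0.0180%), with 0.0722% called lower. DESeq2 called 205 genes higher and 138 lower, and edgeR without single libraries called 0 to 78 higher and 0 to 69 lower. In 8.04% of genes all RNF138-/- libraries lay above all wild-type ones, and in 9.44% below. In the same libraries the summed surface colonocyte markers were at 18257 to 23496 CPM in wild type and 23401 to 28011 with the label RNF138-/-, and the summed goblet markers at 26015 to 27105 and 12128 to 39919. The summed T cell markers, at 26.8 to 28.4 CPM in wild type and 46.1 to 56.7 with the label RNF138-/-, did not overlap, and 8 of 8 were higher (median log2 fold change 0.96, against 0.02 over all genes). Of 14 squamous epithelium markers 5 were read enough to be fitted and 5 were higher (median 1.27), at a summed 6.90 to 8.40 CPM against 8.32 to 34.9. Smooth muscle and B and plasma cell markers were higher in 7 of 8 each (medians 0.47 and 0.70), with sums that overlapped between genotypes. Their part in the difference was not tested.

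In AOM/DSS tissue, the order of the genotypes was the opposite. *Gsdmc2* was at 147, 254 and 1214 CPM in wild type and at 114, 2.27 and 49.8 CPM with the label RNF138-/-, 9.72 times higher in the wild-type mean. *Gsdmc3* was at 52.6, 36.4 and 257 CPM against 3.82, 0.283 and 15.2 CPM, 17.9 times higher, and *Gsdmc4* at 259, 275 and 1267 CPM against 70.1, 3.84 and 73.4 CPM, 12.2 times higher. All 3 genes were lower in 3 of 3 RNF138-/- libraries than in any wild-type library, as were 21.8% of the genes tested, with 22.8% higher. The third wild-type library and the second RNF138-/- library lay far from the others of their groups in each gene.

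None of the 3 tested members passed the thresholds in this contrast (adjusted p below 0.05, at least 2-fold), which 4.83% of genes passed in the lower and 0.546% in the higher direction. On the log2 scale *Gsdmc2* differed by -3.36 (SE 1.39), *Gsdmc3* by -4.24 (SE 1.37) and *Gsdmc4* by -3.69 (SE 1.19). The adjusted p by edgeR were 0.145, 0.0922 and 0.0917. Their unadjusted p were 0.0483, 0.0189 and 0.0185 by edgeR's quasi-likelihood test. An exact permutation test over libraries (two-sided) gave p = 0.1 for each, the smallest it can give with 3 against 3. Other fits gave other calls. DESeq2 called 2 of the 3 members, *Gsdmc3* (adjusted p = 0.0208) and *Gsdmc4* (adjusted p = 0.00172), with 10.7% of all genes called lower. One edgeR fit of all 18 libraries called 3 of 3 (adjusted p = 0.0223, 0.00548 and 0.00659), with 10.9% of all genes called lower. With the replicate number as a block edgeR called 1, *Gsdmc3* (adjusted p = 0.0327), with 5.28% of all genes called lower. Without the third wild-type library the log2 fold changes were -1.86, -2.79 and -2.44, and none passed. With Y-linked expression as a covariate they were -4.17, -7.98 and -5.77 (edgeR, adjusted p = 0.587, 0.36 and 0.414). In that fit 0 of all genes passed by edgeR, and an unadjusted p under 0.05 was reached by 727 genes in the higher and 1508 in the lower direction.

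**Figure D3:**
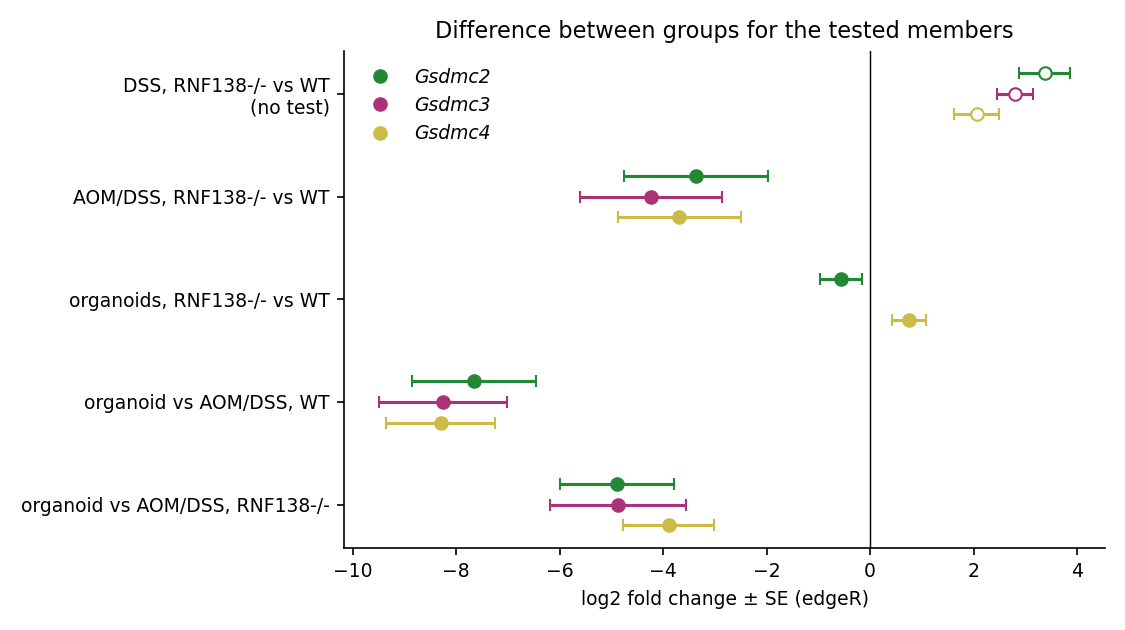
Log2 fold change (points) with SE (bars) from edgeR for the members that passed the filter in the fit of each comparison. Open points mark DSS, where no test is given. *Gsdmc3* has filled points in organoids against AOM/DSS tissue, though it was not tested there. The 3 members lie above 0 in DSS and below 0 in AOM/DSS and, by -3.89 to -8.30, in organoids against AOM/DSS tissue, where *Gsdmc3* passed the filter only through tissue and its points are a description.

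Epithelial and other markers moved in the same AOM/DSS libraries, and their part in the members' values was not tested. Of 22 surface colonocyte markers tested, 6 passed as lower and 0 as higher in RNF138-/- tissue. Their median log2 fold change was -3.10, against 0.01 over all genes, and their summed level was 2728 to 6159 CPM against 13259 to 45760 in wild type. Of 9 goblet markers 6 passed as lower, of 8 smooth muscle markers 8 and of 8 B and plasma cell markers 7. Of the 14 general epithelial markers 1 passed as lower, and their median log2 fold change was -0.73. Measured from that median, the members' log2 fold changes were -2.64, -3.52 and -2.96. Of 12 crypt base markers 1 passed as higher and 0 as lower, with a median of 1.66. Leaving out single libraries, 0 to 13 surface colonocyte markers passed as lower and 0 to 7 crypt base markers as higher. Without the first or the second RNF138-/- library 0 genes passed in any list and 0 of all genes tested, by edgeR. Without the first, 1922 and 3126 genes had an unadjusted p under 0.05 in the higher and lower direction, and without the second 1428 and 2472.

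In organoids, the members were at the edge of what was read. *Gsdmc2* had 44, 20 and 58 counts in wild type and 38, 29 and 19 with the label RNF138-/-, or 2.52, 1.57 and 3.88 CPM against 2.65, 1.53 and 1.41 CPM. The genotypes overlapped, and the log2 fold change was -0.56 (SE 0.41, edgeR, adjusted p = 0.303). It was -0.20 without the third wild-type and -0.89 without the first RNF138-/- library. *Gsdmc4* had 33, 20 and 33 counts against 67, 54 and 32, or 1.89, 1.57 and 2.21 CPM against 4.67, 2.85 and 2.38 CPM. All 3 RNF138-/- libraries were above the wild-type ones by CPM, as were 28.0% of genes tested, with 25.2% below, and the log2 fold change was 0.75 (SE 0.33, edgeR, adjusted p = 0.109), or 0.43 without the first RNF138-/- library. Measured from the median of the general epithelial markers, *Gsdmc2* was at -0.07 and *Gsdmc4* at 1.25. *Gsdmc3* had 9, 0 and 8 counts against 4, 4 and 2 and was not tested. Thus 0 of the 2 members tested passed, where 7.94% of genes passed as higher and 7.04% as lower, or 1215 and 1077 genes, which became 936 and 1654 without scaling beyond the total count. Their unadjusted p were 0.202 and 0.0525 by edgeR's quasi-likelihood test, and 0.237 and 0.0454 by DESeq2, which called neither. The fibroblast markers also differed, with 6 of 8 passing as higher in RNF138-/-.

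Against tissue of the AOM/DSS model, from which the labels say organoids were grown, organoids of both genotypes had far less of each member. In wild type the means were 2.65 CPM of *Gsdmc2* against 538, 0.350 CPM of *Gsdmc3* against 115 and 1.89 CPM of *Gsdmc4* against 600.1. *Gsdmc3* passed the filter on low counts only through the tissue libraries, so for it the levels are given with no test. The log2 fold changes were -7.65 (SE 1.21) for *Gsdmc2* and -8.30 (SE 1.06) for *Gsdmc4*, and both passed (edgeR, adjusted p = 6.14e-05 and 8.57e-06), where 26.8% of all genes passed as lower. With the label RNF138-/- the means were 1.86 against 55.4, 0.213 against 6.44 and 3.30 against 49.1 CPM. The log2 fold changes of *Gsdmc2* and *Gsdmc4* were -4.89 (SE 1.10) and -3.89 (SE 0.88), and both passed (edgeR, adjusted p = 0.00124 and 0.00127), where 26.5% of all genes passed as lower. Without scaling beyond the total count 8153 genes passed as lower and 2177 as higher, against 5138 and 3466. In wild type no organoid library reached any tissue library, as in 36.1% of genes in that direction. Y-linked transcripts were read in tissue but not in wild-type organoids, so sex cannot be told apart from culture there. With the label RNF138-/- the second tissue library, at 2.27 CPM of *Gsdmc2* and 3.84 CPM of *Gsdmc4*, lay within the organoid range for these 2 genes.

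The genotype effect differed between organoids and AOM/DSS tissue for *Gsdmc4*, by 4.41 on the log2 scale (SE 1.20, edgeR interaction, adjusted p = 0.0155), where 13.1% of genes passed in that direction and 10.2% in the other. Over all genes this is 2540 against 1987, which became 1663 against 4459 without scaling beyond the total count, while *Gsdmc4* stayed at 3.85 (adjusted p = 0.0171). For *Gsdmc2* the difference was 2.77 (adjusted p = 0.169), which did not pass and lay between 1.30, without the third wild-type AOM/DSS library, and 3.85, without the first RNF138-/- one. *Gsdmc3* is not given here, since it did not pass the filter in organoids. Without the third wild-type AOM/DSS library the difference of *Gsdmc4* was 3.20 and its adjusted p 0.0501, so neither member passed.

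Between the 2 tissue models, values are given with no test because they use the DSS libraries. In wild type the AOM/DSS mean was 7.11 times the DSS mean for *Gsdmc2*, 4.04 times for *Gsdmc3* and 2.71 times for *Gsdmc4*. The groups did not overlap, as in 17.6% of genes in that direction. The log2 fold changes were 2.87, 2.05 and 1.47, and without the third AOM/DSS library 1.40, 0.64 and 0.26. In the same libraries the median log2 fold change was 3.27 over 11 squamous epithelium, 1.06 over 12 crypt base, 0.54 over 22 surface colonocyte and -0.12 over 9 goblet markers, against 0.04 over all genes. Leaving out single libraries, these medians ranged from 2.74 to 3.79, 0.63 to 1.48, -0.69 to 0.77 and -0.42 to -0.04 in this order. With the label RNF138-/- the order turned, and the DSS mean was 14.0, 30.6 and 18.7 times the AOM/DSS mean, also without overlap, as in 27.3% of genes in that direction. Marker lists moved in the same libraries. The median log2 fold change was -2.67 over 22 surface colonocyte, -2.98 over 9 goblet, -5.78 over 8 smooth muscle and -3.62 over 8 B and plasma cell markers. It was 2.68 over 12 crypt base and 2.75 over 11 squamous epithelium markers, against 0.04 over all genes. Their part in the members' values was not tested.

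The make-up of the cluster's reads changed beside its level. In wild-type DSS tissue *Gsdmc4* held 66.9% to 69.6% of the summed counts, *Gsdmc2* 22.4% to 24.1% and *Gsdmc3* 8.02% to 9.68%. In DSS tissue labelled RNF138-/- the share of *Gsdmc2* was 34.9% to 45.1% and that of *Gsdmc4* 45.0% to 55.2%, so that the ratio of *Gsdmc2* to *Gsdmc4* counts was 0.633 to 0.995 against 0.322 to 0.357 in wild type, with no overlap. The ratio was 0.567 to 0.958 in wild-type AOM/DSS tissue and 0.590 to 1.63 in that labelled RNF138-/-. In organoids it was 1.00 to 1.76 in wild type and 0.537 to 0.594 in RNF138-/-, again with no overlap, on 40 to 99 and 53 to 109 summed counts. Because the copies share windows, these shares also depend on how reads that fit more than 1 copy were counted. Per length of windows found in no other gene, the *Gsdmc2* share was 24.1% to 25.9% in wild-type DSS tissue and 37.2% to 47.5% in that labelled RNF138-/-.

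**Figure D4:**
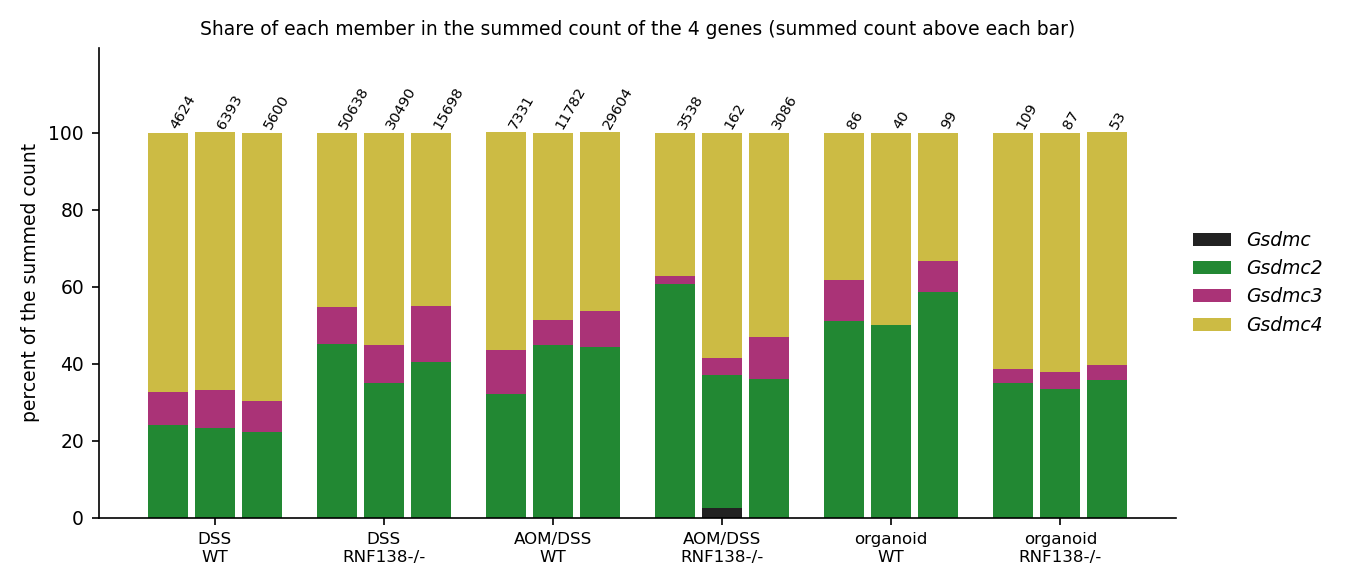
Percent of the summed count of the 4 genes held by each member in each library (bars), with the summed count above. The wild-type DSS libraries have the smallest *Gsdmc2* shares, 22.4% to 24.1%, and the *Gsdmc* share is visible only in the second RNF138-/- AOM/DSS library, where it was 4 counts of 162.

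Per kilobase of exon, *Gsdmc4* had the highest mean level in wild-type DSS tissue, 106 CPM per kb, against 32.7 for *Gsdmc2* and 12.3 for *Gsdmc3*. In DSS tissue labelled RNF138-/- the levels were 439, 336 and 84.5 CPM per kb. In AOM/DSS tissue labelled RNF138-/- the means of *Gsdmc4* and *Gsdmc2* were 23.5 and 23.9 CPM per kb, and *Gsdmc3* was at 2.77. There the ratio of *Gsdmc2* to *Gsdmc4* counts was 1.63 in the first library and 0.590 and 0.679 in the others. *Gsdmc3* was the lowest of the 3 in every group.

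Of the pseudogenes, *Gsdmcl2* had the pattern most like the members. It was at 17.96, 27.9 and 17.4 CPM in wild-type DSS tissue and 428, 83.2 and 27.8 CPM with the label RNF138-/-, the third just under the highest wild-type library. In AOM/DSS tissue it was at 40.6, 41.0 and 140 CPM in wild type and 11.53, 0.486 and 11.48 CPM in RNF138-/- (log2 fold change -3.31, SE 1.08, edgeR, adjusted p = 0.0931), and it had at most 4 counts in any organoid library. *Gsdmcl-ps* was at most 16.2 CPM and *Gsdmcl1* had at most 2 counts. Between *Gsdmcl2* and the transcripts of the 4 members no 50-base window was shared, and its shared windows, 22.5%, lay in the other pseudogenes.

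The next 2 protein-coding genes beyond *Gsdmc4* are *Fam49b* and, farther away, *Asap1*. *Fam49b*, a regulator of the actin cytoskeleton, was at 39.1 ± 5.79 CPM in RNF138-/- DSS tissue against 40.7 ± 5.60 in wild type, and at 60.9 ± 3.19 against 47.4 ± 6.77 in AOM/DSS tissue (log2 fold change 0.32, edgeR, adjusted p = 0.141). *Asap1*, which encodes a GTPase-activating protein, was at 22.9 ± 2.04 CPM in RNF138-/- AOM/DSS tissue against 37.0 ± 19.3 (log2 fold change -0.75, edgeR, adjusted p = 0.203). In the other tissue contrasts, given with no test, the log2 fold change of *Asap1* was 0.21 between genotypes in DSS, and 0.26 in wild type and -0.63 in RNF138-/- between AOM/DSS and DSS, the same signs as those of the 3 members read. For *Fam49b* these values were -0.03, 0.23 and 0.64, of which the first and the last had the opposite sign. In organoids *Asap1* had a log2 fold change between genotypes of 0.86 (edgeR, adjusted p = 0.0137) and *Fam49b* of -0.79 (edgeR, adjusted p = 0.00408), both under the fold threshold. The genotype effect differed between organoids and AOM/DSS by 1.58 for *Asap1* (edgeR interaction, adjusted p = 0.0101) and by -1.13 for *Fam49b* (adjusted p = 0.00215). Against AOM/DSS tissue *Asap1* was higher in RNF138-/- organoids, by 2.11 (edgeR, adjusted p = 1.56e-05), where the members were lower.

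Other gasdermins differed from the cluster in where they were read. *Gsdmd*, which caspase-1 and caspase-11 cut, was between 85.6 and 230 CPM in every library, organoids included, and its log2 fold change between genotypes was -0.16 in AOM/DSS (edgeR, adjusted p = 0.708) and 0.14 in organoids (edgeR, adjusted p = 0.31). *Gsdme*, which caspase-3 cuts, was at 12.6 to 32.7 CPM in wild-type AOM/DSS tissue and 7.08 to 8.21 in that labelled RNF138-/- (log2 fold change -1.41, edgeR, adjusted p = 0.0844). *Gsdma*, a gasdermin of skin and upper gut epithelium, was at most 2.70 CPM in DSS tissue, at 23.6, 24.1 and 2.77 CPM in wild-type AOM/DSS tissue and at 45.1, 64.7 and 52.2 CPM with the label RNF138-/- (log2 fold change 1.66, edgeR, adjusted p = 0.136). In organoids *Gsdma* fell by 1.698 (log2) from wild type to RNF138-/- (SE 0.16, edgeR, adjusted p = 0.000937), from 60.9 ± 10.1 to 19.4 ± 1.85 CPM, and its genotype effect differed between organoids and AOM/DSS by -3.35 (edgeR interaction, adjusted p = 0.00232). *Gsdma2* and *Gsdma3* had at most 60 and 1 counts and *Pjvk* at most 6.

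*Casp8*, whose product cuts gasdermin C, had nearly the same level in all groups, with means between 86.5 and 111 CPM and a log2 fold change between genotypes of 0.01 (SE 0.22) in AOM/DSS (edgeR, adjusted p = 0.973) and 0.01 (SE 0.17) in organoids (edgeR, adjusted p = 0.96). Of the list of gasdermin-cutting proteases and inflammasome genes, 4 of 29 tested passed as lower in RNF138-/- AOM/DSS tissue and 1 as higher, with a median of -0.60. *Nlrp6*, an epithelial inflammasome sensor, fell from 136 ± 75.7 to 26.9 ± 6.55 CPM (log2 fold change -2.40, edgeR, adjusted p = 0.0363), and the adaptor *Pycard* from 59.9 ± 17.4 to 17.1 ± 7.22 CPM (log2 fold change -1.86, edgeR, adjusted p = 0.0409). *Il1b*, an inflammasome-processed cytokine, rose from 10.4 ± 2.26 to 44.3 ± 18.8 CPM (log2 fold change 2.05, edgeR, adjusted p = 0.0343). In organoids against AOM/DSS tissue, 21 of 29 passed as lower and 2 as higher in wild type, and 17 and 1 in RNF138-/-. Over all genes 26.8% passed as lower in wild type and 26.5% in RNF138-/-. Of this list 24 genes passed the filter within organoids, and the others entered through tissue, so the counts are a description.

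The type 2 pathway was described by its signals and by the genes it drives. *Stat6* was at 105 ± 3.86 CPM in RNF138-/- and 107 ± 1.94 in wild-type AOM/DSS tissue (log2 fold change -0.07, edgeR, adjusted p = 0.708). *Il4ra* had a log2 fold change of 0.29 there (edgeR, adjusted p = 0.477), and *Il13ra1* of -0.74 (edgeR, adjusted p = 0.0437), under the fold threshold. Of 14 signal genes tested 0 passed both thresholds in that contrast by edgeR, with 1 and 3 at an unadjusted p under 0.05 in the higher and lower direction. In organoids *Il13ra1* rose by 1.04 (edgeR, adjusted p = 0.00214), from 77.9 ± 12.5 to 165 ± 16.8 CPM, the 1 of 13 tested that passed both thresholds. *Il4ra*, *Stat6*, *Jak1* and *Tyk2* rose by 0.88, 0.54, 0.79 and 0.49 there (edgeR, adjusted p = 0.0265, 0.00728, 0.00864 and 0.0208), under the fold threshold. At an unadjusted p under 0.05 by edgeR, 8 of the 13 were higher and 1 lower.

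Of 20 genes of the type 2 epithelial response, 5 passed as lower and 1 as higher in RNF138-/- AOM/DSS tissue, with a median log2 fold change of -2.25. Over all genes 4.83% passed as lower and 0.546% as higher. *Clca1*, *Fcgbp*, *Muc2* and *Tff3*, all called lower, and *Retnlb* are also on the goblet list, so these genes enter both counts. The mucus genes *Clca1*, *Fcgbp* and *Muc2* fell by 5.40, 3.88 and 2.90 on the log2 scale (edgeR, adjusted p = 0.0381, 0.034 and 0.0426), and *Retnla*, a resistin-like gene, was at 0.875 to 6.75 CPM in wild type with 0 counts in all 3 RNF138-/- libraries. *Chil3*, a chitinase-like gene of macrophages, rose by 2.14 (edgeR, adjusted p = 0.0245). *Retnlb*, the goblet cell resistin-like gene that type 2 cytokines induce, was at 3.71, 4.15 and 5.14 CPM in wild-type DSS tissue and at 1810, 1755 and 94.3 CPM with the label RNF138-/-. In AOM/DSS tissue it was at 11.998, 577 and 2153 CPM in wild type and at 16.4, 1.54 and 7.26 CPM in RNF138-/-, -6.86 as a log2 difference (SE 1.90) with an edgeR adjusted p = 0.0702. Its first wild-type AOM/DSS library lay below 1 RNF138-/- library, unlike those of the members. In organoids it had at most 9 counts.

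**Figure D5:**
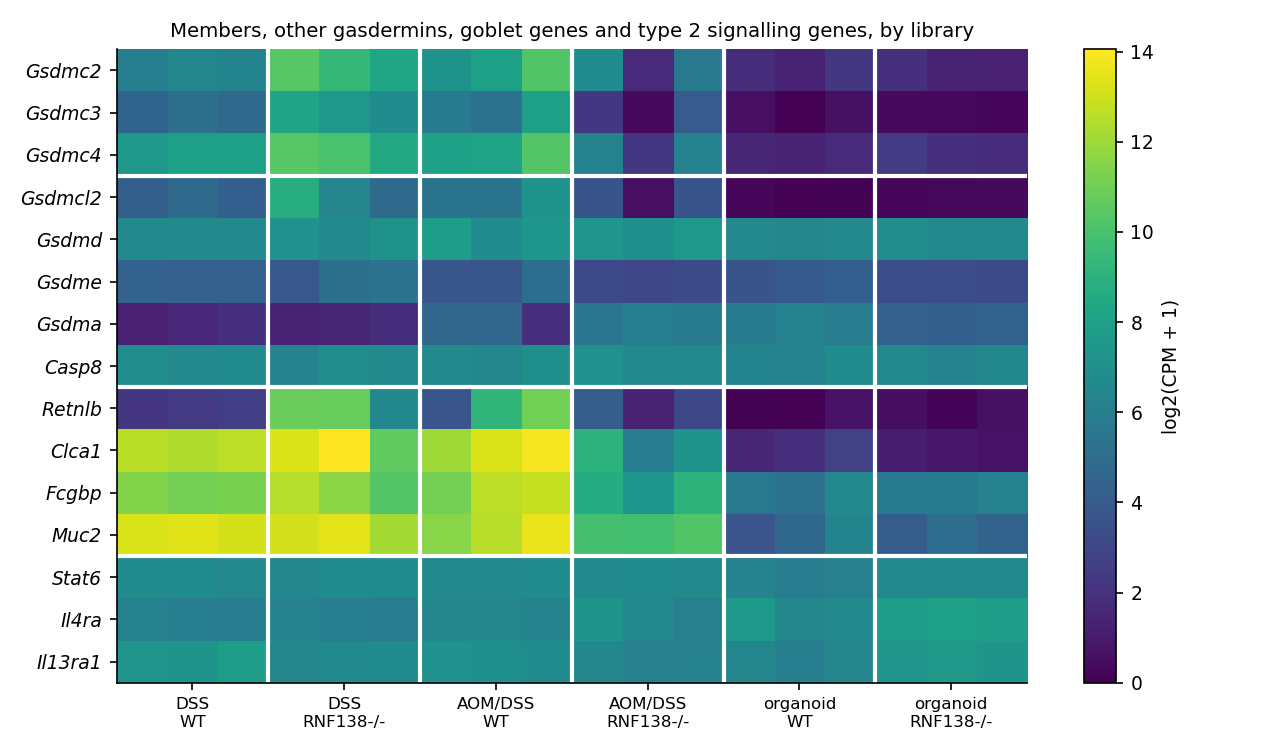
Log2(CPM + 1) by library (columns, 3 per group) for members, other gasdermin genes with *Casp8*, goblet genes, and type 2 signalling genes. *Gsdmc2*, *Gsdmc3*, *Gsdmc4* and *Retnlb* are higher in RNF138-/- than in wild-type DSS tissue. They are high in the third wild-type AOM/DSS library, where *Retnlb* was at 2153 CPM. *Casp8* varies little between all groups, and *Stat6* varies little between the tissue groups.

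In organoids against AOM/DSS tissue, 15 of the 20 type 2 response genes passed as lower and 1 as higher in wild type, and 9 and 2 in RNF138-/-. Of these 20 genes 17 passed the filter within organoids, and the others entered through tissue. *Clca1* and *Muc2*, which passed it, had log2 fold changes of -11.48 and -7.55 in wild type and of -8.01 and -5.46 in RNF138-/-. The goblet markers passed as lower in 9 of 9 in both genotypes, and of 22 surface colonocyte markers 20 passed as lower in wild type and 9, with 3 higher, in RNF138-/-. Over all genes 26.8% passed as lower in wild type and 26.5% in RNF138-/-. Of the goblet markers 8 and of the surface colonocyte markers 21 passed the filter within organoids, and the others entered through tissue. The part of these markers in the loss of the members was not tested.

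The genes of TGF-β receptor signaling gave few calls between genotypes in AOM/DSS tissue, 1 of 17 as lower and 0 as higher. *Tgfbr2*, the type II receptor, had a log2 fold change of 0.26 (edgeR, adjusted p = 0.633) and *Tgfbr1*, the type I receptor, of 0.36 (edgeR, adjusted p = 0.195). The gene called was the co-receptor *Tgfbr3*, at 6.95 ± 0.93 CPM against 25.3 ± 5.69 (log2 fold change -1.90, edgeR, adjusted p = 0.0198). In organoids against AOM/DSS tissue 12 of 17 passed as higher in wild type and 13 of 17 in RNF138-/-, with 0 lower in both. *Tgfbr2* rose by 1.23 and 1.33 and *Tgfb1* by 3.01 and 3.40 on the log2 scale, while the fibroblast markers rose in 7 of 8 and 8 of 8.

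The members were close to each other in pattern. Pearson's r of log2(CPM + 1) over the 12 tissue libraries was 0.92 between *Gsdmc2* and *Gsdmc3*, 0.96 between *Gsdmc2* and *Gsdmc4* and 0.97 between *Gsdmc3* and *Gsdmc4*, and shared windows enter these values. *Retnlb* had an r of 0.80 with the summed members over the same libraries, rank 388 of 16005 genes, and *Epcam*, a general epithelial marker, -0.09.

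Among all genes with a mean of at least 1 CPM, the 8 closest to the summed members over the 18 libraries were *Gsdmcl2* (r = 0.98), *Oas2* (0.97), *Pdzd3*, *Nlrp9b*, *Cdhr5*, *Oas1g*, *Oas1a* and *2010003K11Rik* (0.96). Over the 12 tissue libraries they were *Gsdmcl2* (0.96), *Ndufs4* (0.93), *Ttc22*, *Oas2*, *2010003K11Rik*, *Cdhr5*, *Uqcrh* and *Ceacam20* (0.90). *Oas2*, *Oas1g* and *Oas1a* encode oligoadenylate synthetases, *Cdhr5* a protocadherin of the epithelial brush border, *Nlrp9b* an inflammasome sensor of intestinal epithelium, and *Ndufs4* and *Uqcrh* subunits of the respiratory chain. *Oas2* was at 37.0 ± 4.65 CPM in wild-type and 91.7 ± 33.3 in RNF138-/- DSS tissue, at 128 ± 151 and 9.34 ± 7.65 in AOM/DSS tissue, and under 1.40 in all organoids. The points share libraries and their depth, and by Spearman's rho 2 of each 8 were among the 8 closest.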

How the data were processed

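Total RNA (1 ug per library) from colon tissue and tumor organoids was sequenced, and the authors deposited whole-number counts per gene for 18 libraries, with no normalization. Per the submitters' processing notes the tools were STAR 2.6.1d, HTSeq 0.11.2 and DESeq2 on mm10. How reads that match several copies were counted is not given in the sources used here. Deposited tables of the authors' own comparisons, with fold changes and p-values, were not used.

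Here the counts were filtered with filterByExpr, scaled by TMM and tested with edgeR 4.0.16 (R 4.3.3, quasi-likelihood, Benjamini-Hochberg over all genes tested). Calls required at least 2-fold change with an adjusted p below 0.05, and in the interaction the adjusted p alone. Genotypes were compared in each model's 6 libraries, and organoids with tissue in 1 fit of 18. Single values were compared by exact permutation tests (two-sided). Alternatives were DESeq2 1.42.0, other scalings, no filter, a replicate block, Y-linked expression as a covariate, 1 fit of all libraries and leaving out each library. The fits were tested on simulated data. Totals of 11514716 to 24390082 counts set the precision, and a count of 0 allows up to 3 counts, for counting error only. Likeness was Pearson's r on log2(CPM + 1), and the 8 closest genes with a mean of at least 1 CPM were named. Named list genes were the called genes with the largest changes and the pathway's defining genes. The members and lists were chosen with earlier results of these data known. Gene positions are from the GENCODE M21 annotation of mm10. 1 gene of the lists is not reported here by name.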

Additional observations from a re-analysis of the deposited data

Results flagged for a closer look

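The genotype difference of 3 members had opposite signs in the tissue models. For *Gsdmc2* the log2 fold change was -3.36 in AOM/DSS and 3.37 in DSS, for *Gsdmc3* -4.24 and 2.802, and for *Gsdmc4* -3.69 and 2.06. Every RNF138-/- library lay above all wild-type libraries in DSS and below them in AOM/DSS, as in 8.04% and 21.8% of all genes tested. The difference between the models was not tested, since the DSS contrast had brought *Gsdmc3* forward. For *Gsdmc4* the genotype effect also differed between organoids and AOM/DSS tissue, by 4.41 on the log2 scale (edgeR interaction, adjusted p = 0.0155). Without the third wild-type AOM/DSS library it was 3.20 (adjusted p = 0.0501).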

How the results depend on the processing

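The number of members called lower in RNF138-/- AOM/DSS tissue was 0 of 3, against 1 with the replicate block, 2 with DESeq2 and 3 in one fit of all 18 libraries, and the cause was not tested. The members called in the interaction ranged from 0 to 1 when single libraries were left out, with 0 without the third wild-type AOM/DSS library. Leaving out single libraries, the log2 fold changes of AOM/DSS against DSS ranged in wild type from 1.40 to 3.30 for *Gsdmc2*, 0.637 to 2.46 for *Gsdmc3* and 0.262 to 1.81 for *Gsdmc4*, and in RNF138-/- from -6.63 to -4.35 for *Gsdmc3*. No log2 fold change given for a member changed sign under the alternatives run. The surface colonocyte median of wild-type AOM/DSS against DSS tissue did, ranging from -0.69 to 0.77 when single libraries were left out. The balance of all calls between genotypes in organoids and in the interaction also turned without scaling beyond the total count. Without scaling beyond the total count, the median log2 fold change of all genes went from 0.01 to 0.27 between genotypes in AOM/DSS and from -0.04 to -0.24 in organoids. It went from -0.14 to -0.30 in wild-type and from -0.22 to -0.84 in RNF138-/- organoids against tissue, from -0.04 to -0.49 in the interaction, and from 0.04 to 0.35 in RNF138-/- and to 0.11 in wild-type AOM/DSS against DSS tissue.

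Replicate numbers were shared between genotypes, but the deviations of same-numbered libraries correlated by 0.173, 0.0539 and 0.384 in DSS, 0.0347, 0.181 and 0.0611 in AOM/DSS and -0.118, -0.0396 and 0.0323 in organoids, so the numbers were not taken to pair samples. With the replicate block *Gsdmc3* was called in AOM/DSS (edgeR, adjusted p = 0.0327), where 5.28% of genes were called lower, and no other call of a member changed. Depth limits the organoid values, where *Gsdmc3* had 0 to 9 counts.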

Other observations

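The cytokine gene *Il13* and the antimicrobial ribonuclease gene *Ang4* were chosen after their values were seen. *Il13* had 0, 1 and 0 counts in wild-type DSS tissue and 36, 9 and 1 with the label RNF138-/-, 2, 5 and 5 against 0, 1 and 0 in AOM/DSS tissue, and at most 1 in organoids. *Ang4* was at 15.7, 25.2 and 17.8 CPM against 2609, 2703 and 25.5 CPM in DSS tissue, and at 65.7, 1082 and 1857 CPM against 328, 164 and 95.8 CPM in AOM/DSS tissue. In both genes the third RNF138-/- DSS library was far below the other two, and it was also the lowest of its group for each member read.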
